A study of Xenopus tropicalis with 26 samples.

Results

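The mesoderm-only H3K4me1 regions are stretches of the Xenopus tropicalis genome that carried a peak of this histone mark in 1 untreated marginal zone library. They carried none in the untreated animal cap and vegetal libraries of the same experiment, which does not exclude peaks in other libraries of those tissues. They were chosen by merging the peak lists of untreated ectoderm, mesoderm and endoderm where peaks overlapped by at least 1 bp, and keeping the merged regions that held mesoderm peaks alone. This gave 4832 of 11525 merged regions, and each of the 4832 held exactly 1 mesoderm peak. Positions are printed as the lists give them, 1-based; no source used here names their genome build, and for that reason no gene or sequence is attached to any region.

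All embryos were gastrulae at Nieuwkoop-Faber stage 10.25, 7 hours after fertilisation, and each ChIP-seq sample was dissected from 100 fixed embryos. The 3 lists used by the rule belong to an experiment called set 2 here, with 1 library each for untreated animal cap (ectoderm), marginal zone (mesoderm) and vegetal mass (endoderm). Set 2 also holds 1 library of each layer from embryos injected with 5 pg alpha-amanitin, and 1 library of endoderm from embryos injected with morpholinos (MO) against Vegt, Otx1 and Foxh1. Set 1 is a separate experiment with untreated ectoderm and mesoderm, 2 replicates of each, deposited as 1 pooled peak list per layer. The 6 lists outside the rule are therefore 2 of untreated tissue (set 1) and 4 of injected embryos. The labels name no mock-injected sample and no control morpholino, so an effect of injection itself cannot be told apart from that of either treatment. Which layer a sample came from rests on the dissection, since peak lists hold no marker gene to check it against.

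H3K4me1, monomethylated lysine on histone H3, is laid down at enhancers and around promoters and is often found before or while the nearby gene is active. In the frog gastrula the marginal zone forms mesoderm in response to Nodal-family signals from the vegetal cells beneath it, and its dorsal side holds the organizer. Vegt is a T-box factor stored in the vegetal egg, Foxh1 is a forkhead factor that joins Nodal-activated Smad proteins on DNA, and Otx1 is a homeodomain factor. Alpha-amanitin blocks RNA polymerase II and so keeps the zygotic genome from being transcribed.

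The lists differed in length. The untreated set 2 lists held 4148 ectoderm, 8812 mesoderm and 3740 endoderm peaks, and the set 1 lists 15925 mesoderm and 13130 ectoderm peaks. After alpha-amanitin there were 3648 mesoderm, 3206 ectoderm and 2372 endoderm peaks, and after the morpholinos 1192. Peak names in the set 1 lists carry numbers up to 43181 in mesoderm and 35831 in ectoderm, well above the peaks listed, while those of set 2 run without gaps. What set the listed set 1 peaks apart is not stated, and absence from a set 1 list may reflect it. Read numbers are unknown, so depth cannot be told apart from the extent of the mark, and a region missing from a list may still carry the mark below the calling threshold. In dissected tissue, a weak mark in all cells and a mark in few cells cannot be told apart either. Each group has 1 list, so no p-value is given. Intervals are 95% intervals that cover counting error only, exact (Clopper-Pearson) for shares and normal for differences between shares.

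The mesoderm-only regions were the narrow and weak part of the untreated mesoderm list. Their widths ran from 234 to 1910 bp with a median of 334 bp. The authors' fold enrichment over background had a median of 5.74 (3.31 to 12.7), and the authors' −log10 q a median of 13.7 (6.59 to 52.7). Mesoderm peaks that were shared with one other layer were wider, with medians of 491 bp for those shared with ectoderm and 444.5 bp for those shared with endoderm, and peaks of all 3 layers had a median of 679 bp. The median −log10 q followed the same order, at 17.5, 16.2 and 24.1. When the mesoderm list was divided into 5 strength bins of equal size by −log10 q, mesoderm-only regions made up 75.95% of bin 1, the weakest, 44.8% of bin 4 and 22.3% of bin 5, the strongest. These values chose the regions or go with the choice and are given as a description.

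The regions were spread over the genome much as the whole mesoderm list was. On the 10 numbered chromosomes lay 4476 of them, and 356 lay on scaffolds. They made up 54.6% of the mesoderm peaks on chromosomes and 58.6% of those on scaffolds. By chromosome the share ran from 50.8% (47.3 to 54.3) on chromosome 7 to 59.3% (53.7 to 64.7) on chromosome 10, the chromosome with the fewest mesoderm peaks, so that the lowest and highest intervals still overlapped.

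Few regions sat within 100 bp of the edge of the rule, but counting peaks within 500 bp as shared left 3946 regions. A peak of another layer lay within 10 bp of 4 mesoderm-only regions and within 100 bp of 53. The nearest was on chromosome 4 (63925746 to 63926021), 1 bp from a peak of another layer. On the other side, 4 mesoderm peaks were left out for an overlap of 10 bp or less and 99 for one of 100 bp or less. The smallest such overlap was 2 bp, at a mesoderm peak on chromosome 6 (17544735 to 17545111).

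The highest −log10 q, 52.7, belonged to a region on a scaffold. The 5 strongest mesoderm-only regions on chromosomes were all listed again elsewhere. The strongest lay on chromosome 8 (178714 to 179099), with a −log10 q of 43.8, which ranked 38 in the untreated mesoderm list. It had a −log10 q of 34.9 in set 1 mesoderm and 22.6 in set 1 ectoderm, reached 26.3 after alpha-amanitin in mesoderm, and was in neither list of injected endoderm. The nearest untreated endoderm peak lay 553 bp away. The next, on chromosome 7 (70142568 to 70143425), had a −log10 q of 38.4 in untreated mesoderm and was in both set 1 lists and in alpha-amanitin mesoderm and endoderm. The remaining 3 lay on chromosome 1 (15334178 to 15334488), chromosome 5 (14178048 to 14179655) and chromosome 3 (131649016 to 131649440). All 5 were thus in set 1 ectoderm although untreated set 2 ectoderm had no peak there, and all 5 were in alpha-amanitin mesoderm, while none was in alpha-amanitin ectoderm.

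Across the 6 lists outside the rule, mesoderm-only regions were found most often in set 1 mesoderm and least often in the morpholino endoderm. Set 1 mesoderm held 2879 of them (59.6%, 58.2 to 61.0), against 63.4% of all merged regions. Set 1 ectoderm held 2102 (43.5%, 42.1 to 44.9), against 50% of all merged regions. Alpha-amanitin mesoderm held 754 (15.6%, 14.6 to 16.7), against 26.3% of all merged regions. In every one of these lists the mesoderm-only share lay below that of the merged regions as a whole, which include regions of 2 or 3 layers. Among regions of 1 layer, the mesoderm-only share was highest in set 1 mesoderm, alpha-amanitin mesoderm and alpha-amanitin endoderm. In the last, endoderm-only regions had 4.41% and ectoderm-only regions 2.86%. Ectoderm-only regions stood higher in set 1 ectoderm (67.8%) and alpha-amanitin ectoderm (27.3%). Endoderm-only regions had 3.36% in morpholino endoderm. These shares of single-layer regions were not matched for strength or width.

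**Figure D1:**
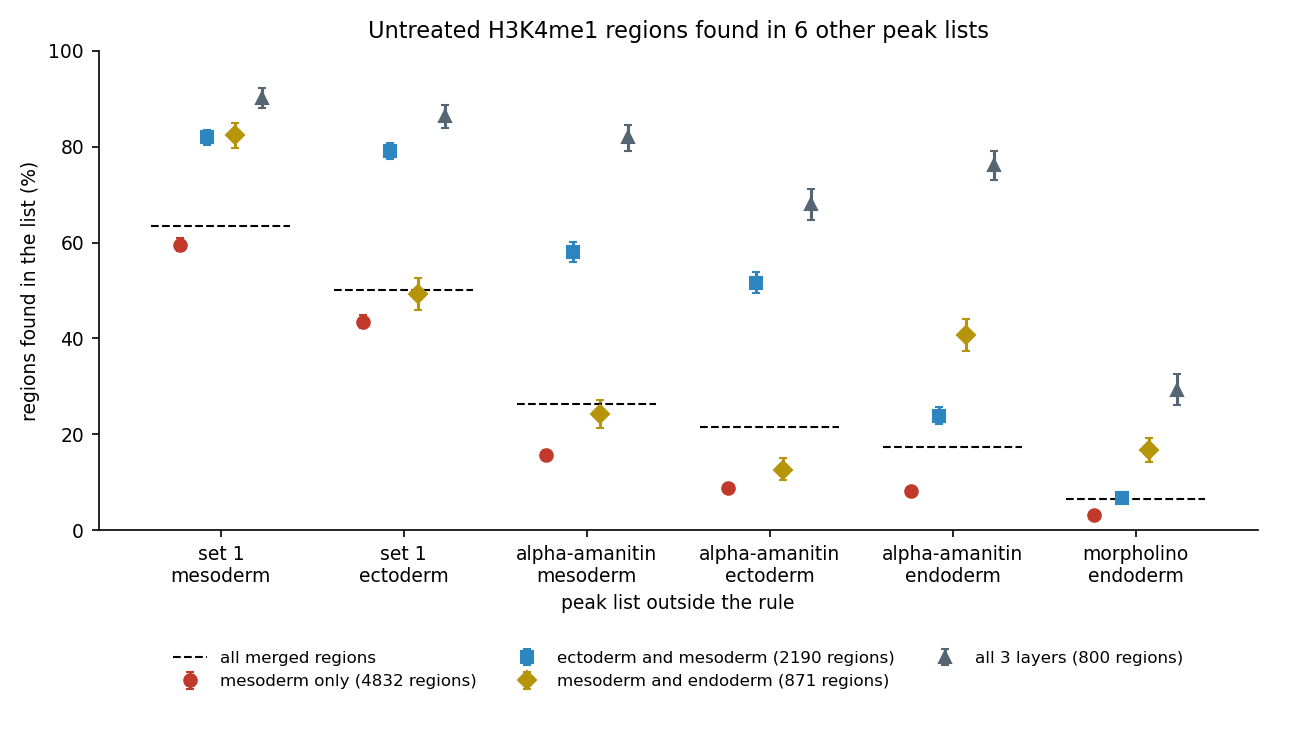
Share of regions (%, vertical axis) found in each of the 6 peak lists that did not enter the rule, for 4 patterns of the untreated lists that include mesoderm. Bars are exact 95% intervals for counting error, and dashed lines give the share of all 11525 merged regions; the mesoderm-only regions lie below the dashed line in every list.

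The lists of injected ectoderm and endoderm held fewer. Alpha-amanitin ectoderm held 429 mesoderm-only regions (8.88%, 8.09 to 9.72; 21.5% of all merged regions), and alpha-amanitin endoderm held 394 (8.15%, 7.40 to 8.96; 17.3% of all merged regions). The morpholino endoderm held 151 (3.13%, 2.65 to 3.66; 6.52% of all merged regions). By the rule, the untreated set 2 libraries of ectoderm and endoderm had no peak at any of these regions. Untreated set 1 ectoderm did, at 323 of the 429 regions found in alpha-amanitin ectoderm (75.3%, 70.9 to 79.3). It held 43.5% of all mesoderm-only regions, and the share of 75.3% was not counted over all merged regions. Regions of the other injected lists were often in set 1 ectoderm too. Of 754 in alpha-amanitin mesoderm, 450 were in both set 1 lists and 53 in set 1 ectoderm alone. Of 394 in alpha-amanitin endoderm, these counts were 224 and 13. With the untreated lists at 3740 peaks each and the other lists at 1192 each, the mesoderm-only regions numbered 1367 and the shares were 10.5% in set 1 mesoderm and 7.97% in set 1 ectoderm. After alpha-amanitin they were 7.75% (mesoderm), 5.49% (ectoderm) and 6.51% (endoderm), and after the morpholinos 5.19%. At equal lengths the share was highest in set 1 mesoderm (10.5%, 8.96 to 12.3) and lowest in morpholino endoderm (5.19%, 4.08 to 6.51). Lists of 1192 peaks can hold few of the regions, which keeps every share low and every gap in points small. This cut shortens the set 1 lists most, leaves the morpholino list whole and changes the regions themselves. What lies behind the wider gap of the full lists was not tested.

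Taking the 6 lists together, 1384 mesoderm-only regions (28.6%, 27.4 to 29.9) were in no other list, against 24.8% of all merged regions. A further 1062 (21.98%, 20.8 to 23.2) were found in set 1 mesoderm or alpha-amanitin mesoderm and in no list of another layer, against 17.4% of all merged regions. The other 2386 (49.4%, 47.96 to 50.8) were in at least 1 list of ectoderm or endoderm, against 57.8% of all merged regions. Regions found again were thus more often in a list of another layer than in mesoderm lists alone, as were merged regions as a whole. More of the 6 lists were of other layers than of mesoderm, and a region in both kinds counted with another layer. Both raise the share of another layer by construction. The 1384 in no other list were not found again in any layer.

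The commonest combinations involved set 1 alone. Both set 1 lists and nothing else held 1029 regions, set 1 mesoderm by itself 896 and set 1 ectoderm by itself 273. Both set 1 lists with alpha-amanitin mesoderm held 231. Combinations of this kind were not counted over all merged regions, so their numbers are a description. Regions in more lists were stronger in the untreated mesoderm list: the median −log10 q was 12.7 for regions in no other list, 14.2 for those in 2 and 16.9 for those in 4. Only 3 regions were in all 6 other lists. The strongest of these lay on chromosome 4 (49652743 to 49653380), 704973 bp from the nearest untreated ectoderm or endoderm peak. Its −log10 q was 23.5 in untreated mesoderm, 19.1 in morpholino endoderm and, after alpha-amanitin, 21.7 in mesoderm, 13.2 in ectoderm and 23.3 in endoderm.

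**Figure D2:**
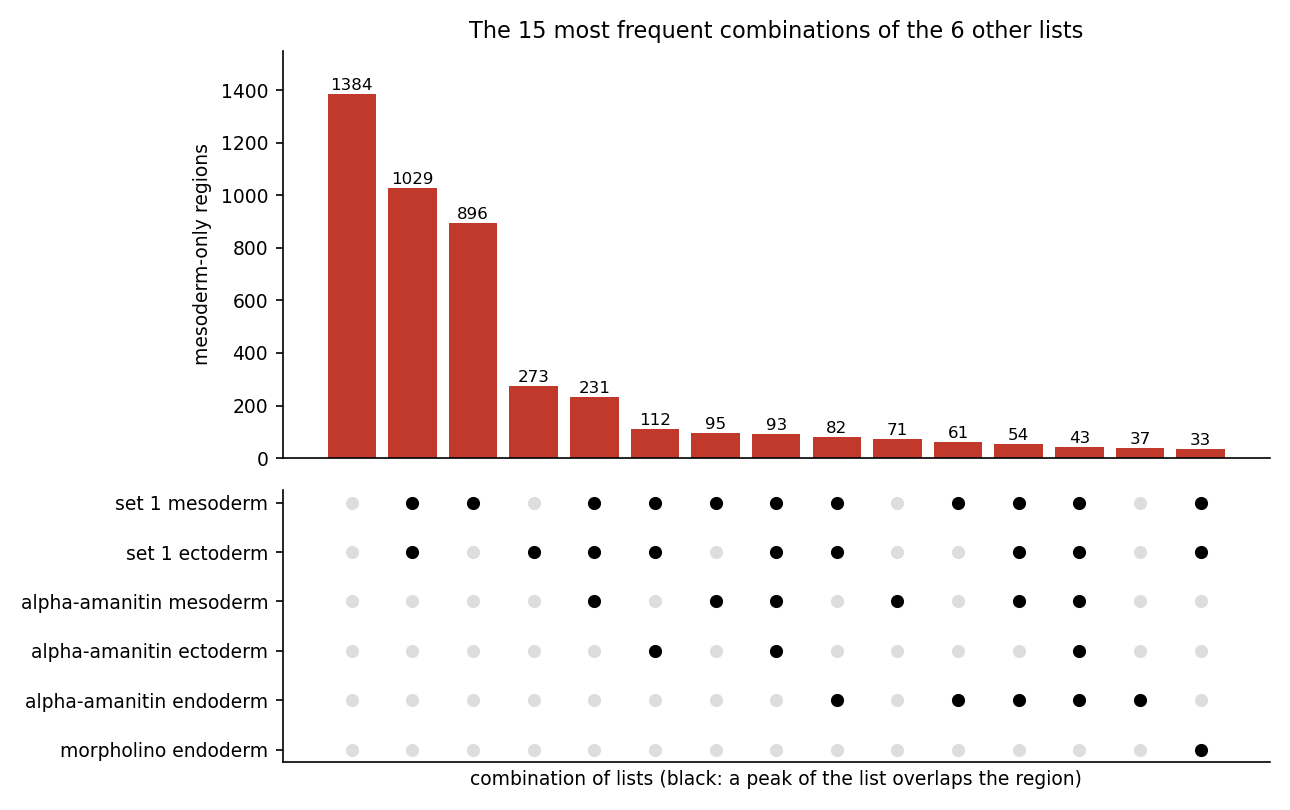
Number of mesoderm-only regions (vertical axis) in each of the 15 most frequent combinations of the 6 other lists, with black dots marking the lists whose peaks overlap the region. The tallest bars are regions in no other list (1384), in both set 1 lists (1029) and in set 1 mesoderm alone (896).

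Regions in no other list were narrower and weaker than the rest, but not all were weak. Their median width was 297 bp, against 336 bp for regions of other mesoderm lists alone and 359.5 bp for regions also in another layer. In strength bin 5 lay 41 of the 1384, and in bin 1 lay 500. The strongest on a chromosome, on chromosome 4 (127465916 to 127466496), had a −log10 q of 33.5 and a fold enrichment of 9.49 in untreated mesoderm and ranked 216 in that list. The next lay on chromosome 5 (97049884 to 97050242), with a −log10 q of 27.1.

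Set 1 bears on the ectoderm side of the label, since it profiled mesoderm and ectoderm in separate libraries. It holds no endoderm, so it does not bear on absence from endoderm. Of the 4832 regions, 1137 (23.5%) were in set 1 mesoderm and not in set 1 ectoderm, 360 (7.45%) were in set 1 ectoderm and not in set 1 mesoderm, 1742 (36.1%) were in both and 1593 (33.0%) in neither. The same split of all merged regions was 20.3%, 6.99%, 43% and 29.6%, so set 1 mesoderm alone outnumbered set 1 ectoderm alone there too. With both set 1 lists at the 13130 strongest peaks, 1002 regions were in mesoderm alone and 462 in ectoderm alone. The split at this length was not counted over all merged regions. At both settings more mesoderm-only regions were shared by the set 1 layers than were in set 1 mesoderm alone. For the 909 ectoderm-only regions of the same merge, 67.8% were in set 1 ectoderm and 52.7% in set 1 mesoderm, so recurrence in the other layer was seen there too.

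Among the 845 regions on chromosomes that were in set 1 mesoderm and in no other list outside the rule, the strongest lay on chromosome 2 (26638660 to 26639386). Its −log10 q was 30.2 in untreated mesoderm and 11.9 in set 1 mesoderm, and an untreated ectoderm peak lay 251 bp away. The next, also on chromosome 2 (130659257 to 130659585), had values of 29.1 and 10.3 and lay 215025 bp from the nearest peak of the other untreated layers. Of the 969 regions on chromosomes in both set 1 lists and no list of injected embryos, the strongest lay on chromosome 4 (83007428 to 83008180). Its −log10 q was 35.5 in untreated mesoderm, 15.6 in set 1 mesoderm and 9.098 in set 1 ectoderm. The next lay on chromosome 6 (68751237 to 68751929), with a −log10 q of 32.0 in untreated mesoderm.

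Since strong peaks are found again more often, mesoderm-only regions were set beside the other mesoderm peaks within the 5 strength bins. From bin 1 to bin 5, the share found in set 1 mesoderm rose from 50.3% to 78.7%, in set 1 ectoderm from 35.8% to 65.99% and in alpha-amanitin mesoderm from 8.36% to 38.6%. In alpha-amanitin endoderm it rose from 3.88% to 23.4%, in alpha-amanitin ectoderm from 5.90% to 18.5% and in morpholino endoderm from 1.49% to 7.36%. Peaks of 2 or 3 layers were chosen for being in several lists, which bears on every comparison with them. The bins match −log10 q and not width, and those peaks were wider. A wider peak meets an overlap of 1 bp more easily.

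Averaged over the bins, mesoderm-only regions lay well below mesoderm peaks shared with ectoderm alone in both mesoderm and ectoderm lists. The difference was −16.7 percentage points (−19.0 to −14.4) in set 1 mesoderm and −31.2 (−33.6 to −28.9) in set 1 ectoderm. After alpha-amanitin it was −32.8 points (−35.2 to −30.3) in mesoderm, −38.0 (−40.4 to −35.6) in ectoderm and −9.54 (−11.4 to −7.65) in endoderm. In morpholino endoderm it was −1.90 points (−3.04 to −0.758). Mesoderm-only regions were thus found less often than the ectoderm-shared peaks of like −log10 q, though not of like width, in every one of these lists.

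Against mesoderm peaks shared with endoderm alone, the picture was different. In set 1 ectoderm the shares averaged 47.1% for mesoderm-only regions and 47.6% for the endoderm-shared peaks, a difference of −0.516 points (−4.14 to 3.11). Single bins went both ways, with 35.8% against 42.1% in bin 1 and 65.99% against 58.2% in bin 5. In ectoderm after alpha-amanitin the averaged difference came to −1.16 points (−3.46 to 1.13), and in mesoderm to −2.78 (−5.65 to 0.0851). These intervals include 0, and they leave room for differences of several points. In set 1 mesoderm, by contrast, mesoderm-only regions averaged 62.98% and the endoderm-shared peaks 82.1%, a difference of −19.1 points (−22.1 to −16.2), in alpha-amanitin endoderm the difference was −28.1 (−31.5 to −24.8) and in morpholino endoderm −12.5 (−15.0 to −9.98).

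**Figure D3:**
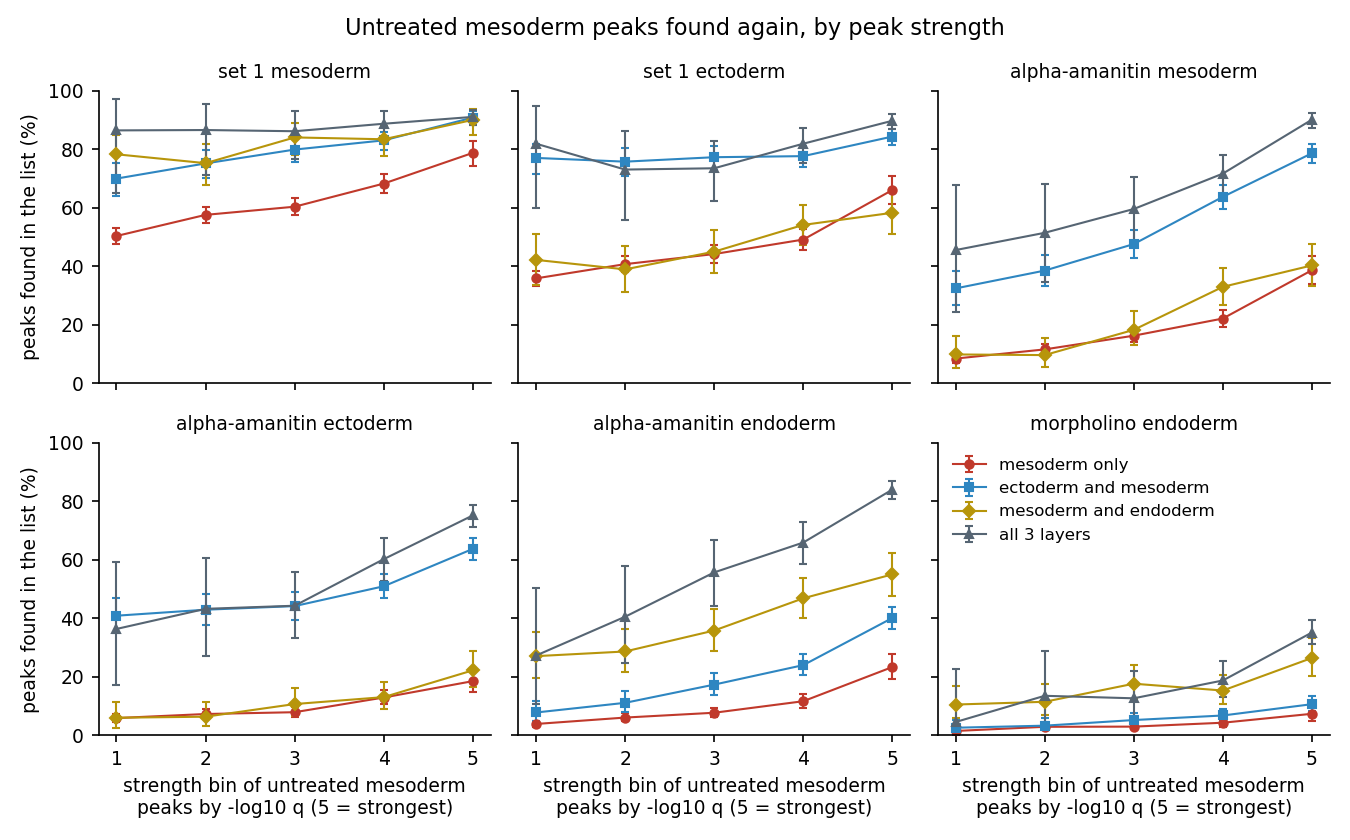
Share of untreated mesoderm peaks (%, vertical axis) found in each of the 6 other lists, by strength bin (horizontal axis, bin 5 the strongest), for 4 patterns of the untreated lists, with exact 95% intervals for counting error. In every bin of set 1 ectoderm and alpha-amanitin ectoderm the intervals of mesoderm-only regions overlap those of peaks shared with endoderm; in alpha-amanitin mesoderm bin 4 is the exception (22.1% against 32.9%). Mesoderm-only regions lie below those peaks in set 1 mesoderm and injected endoderm.

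After alpha-amanitin, most mesoderm-only regions were in no list of any layer, as were most merged regions. Of the 4832, 3651 (75.6%, 74.3 to 76.8) were in none of the 3 alpha-amanitin lists, against 61.4% of all merged regions, and 1181 (24.4%, 23.2 to 25.7) in at least 1, against 38.6%. In alpha-amanitin mesoderm alone lay 449 (9.29%, 8.49 to 10.1), against 8.24% of all merged regions. In ectoderm alone lay 191 and in endoderm alone 203. Mesoderm with ectoderm held 147, mesoderm with endoderm 100, ectoderm with endoderm 33 and all 3 layers 58. Apart from mesoderm alone, these combinations were not counted over all merged regions. In total 427 regions (8.84%) were in an alpha-amanitin list of another layer while missing from alpha-amanitin mesoderm, against 12.3% of all merged regions.

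Peaks at these regions after alpha-amanitin were not confined to mesoderm. Of the 754 regions found in alpha-amanitin mesoderm, 27.2% (24.0 to 30.5) were also in alpha-amanitin ectoderm and 20.95% (18.1 to 24.0) in alpha-amanitin endoderm. Of the 4078 regions not found there, 5.49% (4.81 to 6.24) and 5.79% (5.09 to 6.55) were in those lists. These shares are not matched for strength and were not counted over all merged regions. At the 2372 strongest peaks of each alpha-amanitin list, 8.88% (8.09 to 9.72) of the regions were in mesoderm, 6.13% (5.47 to 6.84) in ectoderm and 8.15% (7.40 to 8.96) in endoderm, so that the interval of mesoderm lay above that of ectoderm and overlapped that of endoderm. All these shares come from the same regions, so overlap or separation of their intervals does not measure the differences between them. The cut shortened the mesoderm list and left the endoderm list whole, and shares at this cut were not counted over all merged regions. In the full mesoderm list, peaks at these regions stood at a median percentile of 39.9 by −log10 q. What lies behind the gap of the full lists, 15.6% in mesoderm against 8.15% in endoderm, was not tested.

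After alpha-amanitin, regions that set 1 gave to mesoderm alone had lower shares than those in both set 1 lists. In mesoderm of those embryos the shares were 11.9% (10.0 to 13.9) and 25.8% (23.8 to 27.96), and in ectoderm 3.96% (2.90 to 5.26) and 16.2% (14.5 to 18.1). Within strength bins the differences were −12.5 points (−15.9 to −9.14) and −11.7 points (−14.2 to −9.21). In alpha-amanitin endoderm the difference was smaller, at −3.77 points (−6.60 to −0.936), and in morpholino endoderm it was −1.28 (−3.005 to 0.447), with an interval that includes 0. Among regions in neither set 1 list, 7.28% (6.05 to 8.67) were in alpha-amanitin mesoderm. Regions in both set 1 lists were chosen for being in both, which bears on every comparison with them. The shares of these set 1 classes in injected lists were not counted over all merged regions.

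**Figure D4:**
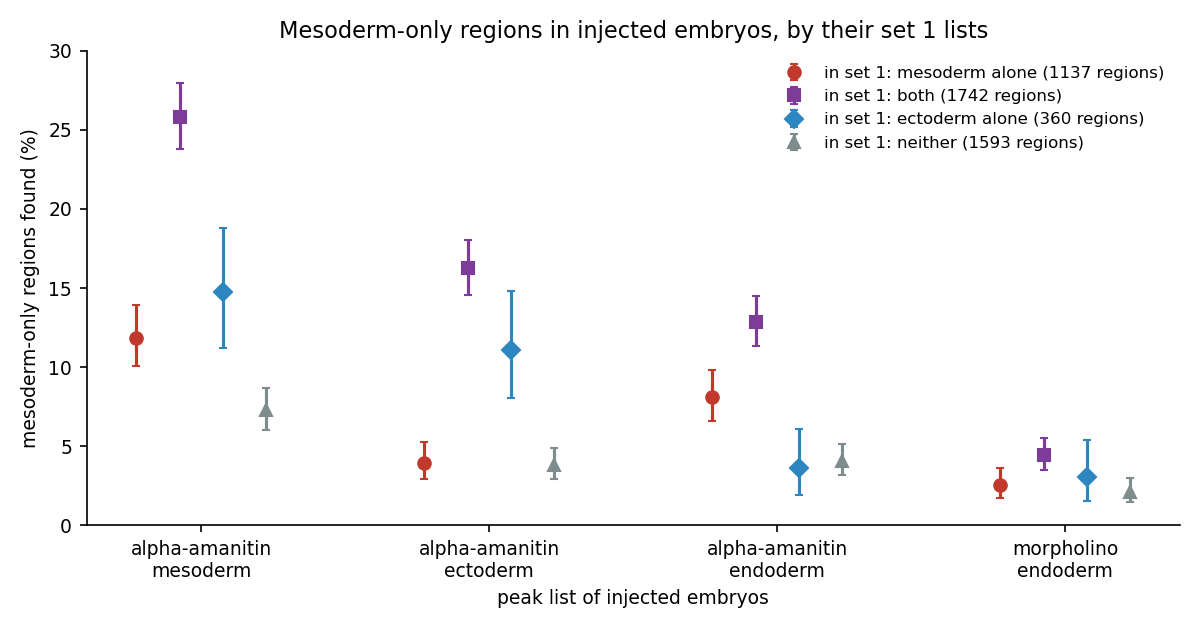
Share of mesoderm-only regions (%, vertical axis) found in the 4 lists of injected embryos, divided by the set 1 lists that held them, with exact 95% intervals for counting error. Regions in both set 1 lists have the highest share in each list of injected embryos, from 25.8% in alpha-amanitin mesoderm to 4.42% in morpholino endoderm.

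A small group of regions had mesoderm peaks in all 3 mesoderm libraries or pools and nowhere else. These were the 95 regions found in set 1 mesoderm and alpha-amanitin mesoderm only, of which 87 lay on chromosomes. The same combination was not counted over all merged regions, so the group is not shown to be particular to mesoderm-only regions. The strongest was on chromosome 9 (14250815 to 14251506), with a −log10 q of 34.7 in untreated mesoderm, 16.0 in set 1 mesoderm and 10.3 in alpha-amanitin mesoderm. Untreated ectoderm and endoderm peaks lay 2252 and 2178 bp away. The next, also on chromosome 9 (73694172 to 73694523), had values of 30.1, 20.5 and 14.7, and its nearest endoderm and ectoderm peaks lay 18297 and 207571 bp away.

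By the rule, no peak of untreated set 2 ectoderm or endoderm overlaps a mesoderm-only region. Most peaks of injected ectoderm and endoderm at these regions were absent from the untreated set 2 list of their layer. Absent were 416 of 432 in alpha-amanitin ectoderm, 394 of 399 in alpha-amanitin endoderm and 151 of 154 in morpholino endoderm. What follows is a description of where such peaks lay. The alpha-amanitin endoderm list held 1272 peaks absent from untreated endoderm, and 394 of them (31.0%, 28.4 to 33.6) lay in mesoderm-only regions. In ectoderm, 416 of 1177 peaks absent from untreated set 2 ectoderm did so (35.3%, 32.6 to 38.2). Of these 416, 307 (73.8%, 69.3 to 77.96) overlapped a peak of untreated set 1 ectoderm, a share not counted for the other peaks of the list. After the morpholinos, 151 of 750 peaks absent from untreated endoderm lay in mesoderm-only regions (20.1%, 17.3 to 23.2). Leaving out peaks shared with the untreated list of the layer raises such shares by construction. Of the whole lists, 13.5% of alpha-amanitin ectoderm and 12.9% of morpholino endoderm peaks lay in mesoderm-only regions. Of the whole alpha-amanitin endoderm list, 399 peaks (16.8%, 15.3 to 18.4) lay there. They stood at a median percentile of 40.9 by −log10 q within that list, against 56.7 for peaks in other untreated mesoderm peaks and 36.6 for peaks in none. No further untreated endoderm library was analysed here, so peaks that appear with injection cannot be told apart from peaks that the untreated endoderm library missed.

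On chromosomes, 103 mesoderm-only regions were in set 1 mesoderm and in injected endoderm but not in set 1 ectoderm. That class was not counted over all merged regions. The strongest lay on chromosome 10 (34075419 to 34076132), with a −log10 q of 35.5 in untreated mesoderm, 18.2 in set 1 mesoderm, 11.3 in alpha-amanitin mesoderm and 14.3 in alpha-amanitin endoderm. The next lay on chromosome 4 (115863043 to 115863391), with values of 29.6, 25.1, 20.1 and 17.1 in the same lists. Neither was in the morpholino list.

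Regions in the morpholino list were in the alpha-amanitin lists more often than the other regions were, without matching for strength. Of its 151 mesoderm-only regions, 54 (35.8%, 28.1 to 43.96) were in alpha-amanitin mesoderm, 40 (26.5%, 19.6 to 34.3) in alpha-amanitin endoderm and 27 (17.9%, 12.1 to 24.9) in alpha-amanitin ectoderm. The corresponding shares of the 4681 regions missing from the morpholino list were 14.95%, 7.56% and 8.59%. None of these shares was counted over all merged regions, so they are not shown to be particular to mesoderm-only regions. A second region in all 6 other lists, on chromosome 5 (62563473 to 62563970), had its highest value after the morpholinos, with a −log10 q of 33.3 there against 16.1 in untreated mesoderm, although q values of separate lists are not on a common scale.

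Where a region was found again, summit distances were measured between overlapping peaks only, a condition that itself keeps them short. No distance expected by chance was computed. The median distance between the untreated mesoderm summit and the nearest summit of an overlapping peak was 94 bp in set 1 mesoderm (quartiles 35 and 295.5), 104 bp in set 1 ectoderm and 71.5 bp in alpha-amanitin mesoderm (28 and 157.5). Within 100 bp lay 51.5% (49.7 to 53.4) of the summits in set 1 mesoderm and 61.5% (57.96 to 65.0) of those in alpha-amanitin mesoderm. The other untreated mesoderm peaks gave 53.7% (51.95 to 55.4) and 62.0% (59.9 to 64.0). In morpholino endoderm the median was 99 bp for mesoderm-only regions and 72 bp for the other mesoderm peaks, with 50.99% (42.7 to 59.2) and 57.0% (52.7 to 61.3) within 100 bp. The intervals of both kinds of peak overlapped in each of these 3 lists. The set 1 peaks were wider, with a median of 739 bp in set 1 mesoderm over regions of 355 bp, and the alpha-amanitin mesoderm peaks narrower, with 308.5 bp over regions of 423 bp. Wide set 1 peaks meet a region more easily, and 181 of the 2733 set 1 mesoderm peaks over mesoderm-only regions covered 2 or more of them, up to 4.

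The distance from mesoderm-only regions to marks of other layers varied widely. On chromosomes, the nearest untreated ectoderm or endoderm peak was at a median distance of 7197 bp, with quartiles at 876.75 and 70319.5 bp. Ectoderm peaks were nearer than endoderm peaks for 2661 regions (59.5%), with median distances of 18188.5 and 55766 bp, and the untreated ectoderm list is the longer. Within 1 kb of such a peak lay 1179 regions (26.3%), and over 100 kb away lay 950 (21.2%). Such distances were not measured for regions of the other single layers, so these values are a description.

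Regions next to other layers' peaks were found again more often. In set 1 mesoderm the share was 70.6% (67.9 to 73.2) within 1 kb and 51.8% (48.6 to 55.01) beyond 100 kb, and in set 1 ectoderm 55.2% (52.3 to 58.1) and 37.3% (34.2 to 40.4). In alpha-amanitin mesoderm it was 22.6% (20.3 to 25.1) and 10.1% (8.26 to 12.2). Within strength bins these differences were 14.1 points (9.68 to 18.5), 13.0 (8.32 to 17.8) and 10.9 (6.84 to 14.9). In morpholino endoderm the difference was −0.00352 points (−2.15 to 2.14).

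More than 1 in 2 mesoderm-only regions had another within 10 kb. Joining neighbours at that distance placed 2746 regions (56.8%) in 994 stretches of 2 or more, and 563 (11.7%) in 95 stretches of 5 or more, while 2086 (43.2%) stood alone. Regions in stretches of 5 or more were found in set 1 mesoderm in 71.8% (67.8 to 75.4) of cases and lone regions in 53.3% (51.1 to 55.5), a difference of 15.4 points (11.1 to 19.7) within strength bins. Its interval counts each region separately, although 377 mesoderm-only regions lay under set 1 mesoderm peaks that covered 2 or more. Such shared peaks can mark neighbouring regions together. In alpha-amanitin mesoderm the difference between these stretches and lone regions was 0.273 points (−3.72 to 4.27). In alpha-amanitin ectoderm it went the other way, at −5.80 points (−8.67 to −2.92). It was 2.40 points (−1.03 to 5.83) in alpha-amanitin endoderm and −2.06 (−3.87 to −0.245) in morpholino endoderm. In 27 of the 95 stretches, holding 159 regions, no untreated ectoderm or endoderm peak lay inside. Stretches were not counted over all merged regions or over the other mesoderm peaks, so their numbers are a description.

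The longest stretch by number lay on chromosome 3 (125539835 to 125576161) and held 13 mesoderm-only regions in 36.3 kb, with −log10 q from 9.04 to 21.7. Of these 13, 12 were in set 1 mesoderm, 9 in set 1 ectoderm and 3 in alpha-amanitin mesoderm. Also inside were 4 untreated mesoderm peaks shared with another layer, 4 untreated ectoderm peaks and 2 untreated endoderm peaks. The regions of this stretch therefore lay among marks of all 3 layers.

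The stretch on chromosome 6 (18529163 to 18564789) was of another kind. It held 12 mesoderm-only regions in 35.6 kb and no peak of untreated ectoderm or endoderm, which made it the stretch with the most regions among the 27 without such peaks. Its strongest region (18529163 to 18529506) had a −log10 q of 26.6, and its widest (18548565 to 18549634) measured 1070 bp. In set 1 mesoderm 6 of the 12 were found, in set 1 ectoderm 7, in alpha-amanitin mesoderm 1 and in the other injected lists 0. There was 1 alpha-amanitin mesoderm peak in the whole stretch, over the widest region.

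**Figure D5:**
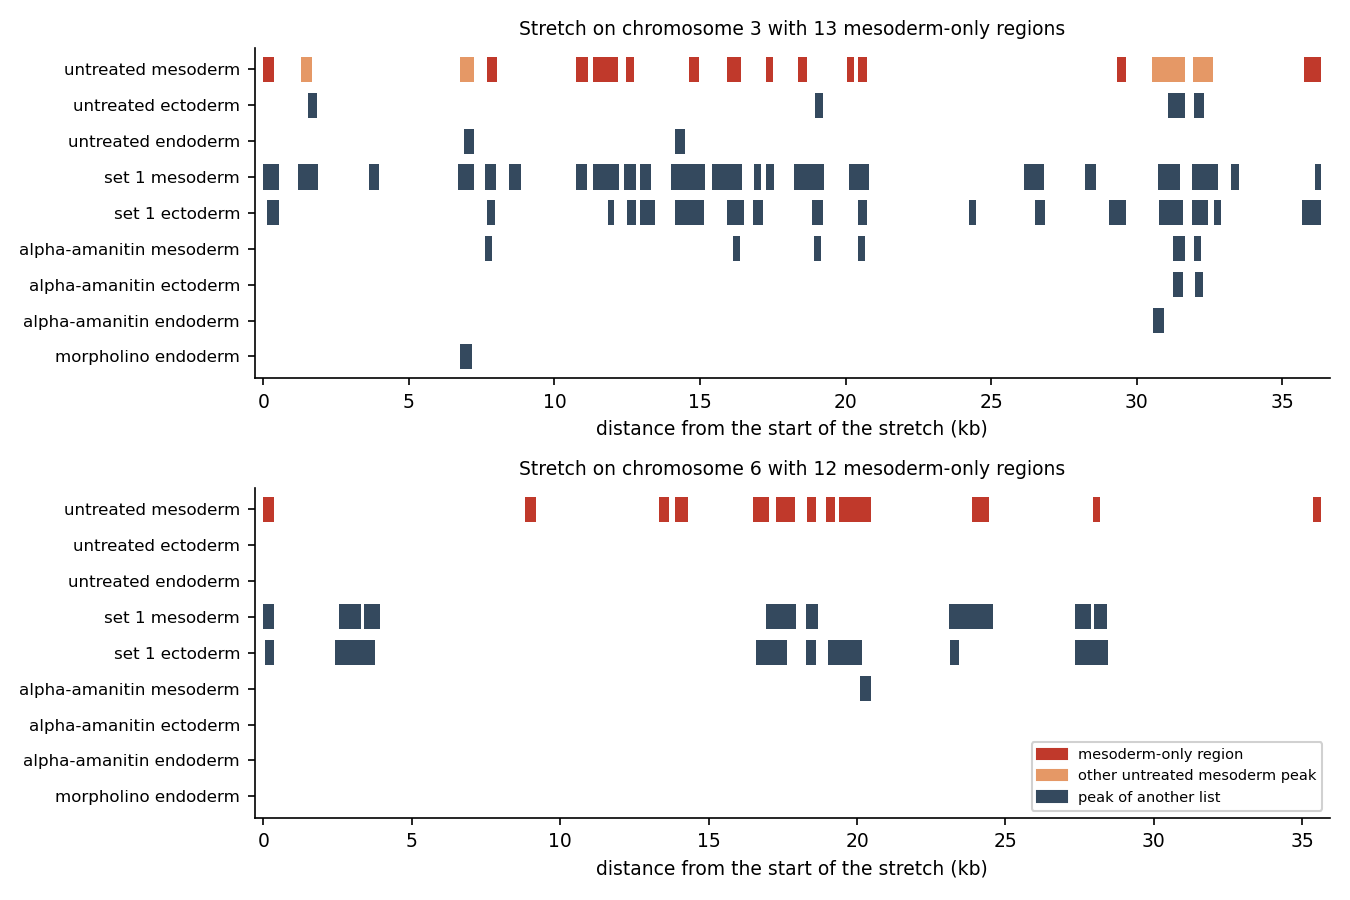
Peaks of the 9 lists along the stretches on chromosome 3 (13 mesoderm-only regions) and chromosome 6 (12), with distance from the start of the stretch in kb on the horizontal axis and 1 row per list. On chromosome 6 the rows of untreated ectoderm, untreated endoderm and of alpha-amanitin ectoderm, alpha-amanitin endoderm and morpholino endoderm are empty, while the set 1 ectoderm row is not.

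Equal numbers of regions, 9 each, came next on chromosome 5 (16737173 to 16769350) and, far along the same chromosome, at 95985000 to 96014031. In the former, 8 regions were in set 1 mesoderm, 7 in set 1 ectoderm, 1 in alpha-amanitin mesoderm and 1 in alpha-amanitin ectoderm. In the latter, 6 were in set 1 mesoderm, 4 in set 1 ectoderm and 2 in alpha-amanitin mesoderm. In none of these 4 stretches was any mesoderm-only region in the alpha-amanitin endoderm or morpholino lists. Of all 563 regions in stretches of 5 or more, 59 (10.5%, 8.07 to 13.3) were in alpha-amanitin endoderm and 10 (1.78%) in morpholino endoderm. The widest mesoderm-only region stood outside these 4 stretches, on chromosome 1 (56217120 to 56219029). It measured 1910 bp, had a −log10 q of 19.5 in untreated mesoderm and was in both set 1 lists and all 3 alpha-amanitin lists.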

How the data were processed

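The 9 deposited H3K4me1 peak lists were used as the authors made them. Bowtie2 2.2.7 is a named tool, per the submitters' processing notes; no source used here states the peak caller, its settings, an input control or the build. Deposited values used were each peak's fold enrichment (a ratio), −log10 q and summit; the deposited score and −log10 p were not. Peak names in the deposited set 1 lists say that replicates were pooled. The single-embryo RNA table was not used here, since its gene models carry no coordinates.

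Regions counted as found when they overlapped a list's peak by at least 1 bp. Strength bins, in 5 equal parts, follow the −log10 q of the untreated mesoderm list, and differences are unweighted means over bins. Stretches join regions at most 10 kb apart. Coordinates are 1-based. Named regions are those with the highest −log10 q on chromosomes in each combination of lists, the widest regions, the stretches with the most regions and those nearest the rule's edge. The regions, groupings and comparisons were chosen with earlier results of these data known. Overlap, merging and intervals were tested on simulated data. Python 3.11.15, numpy 2.4.6, pandas 2.3.3, scipy 1.17.1 and matplotlib 3.10.9 were used.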

Additional observations from a re-analysis of the deposited data

How the results depend on the processing

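No paired analysis was possible because the results come from overlaps of peak lists, and each group has 1 list. The number of mesoderm-only regions was 5028 when 50% of the shorter peak had to overlap, 3946 when peaks within 500 bp counted as shared and 4476 on chromosomes alone. It was 2601 with the upper 50% of every list and 1367 with lists of equal length. The shares below stand in the order set 1 mesoderm, set 1 ectoderm, then alpha-amanitin mesoderm, ectoderm and endoderm, then morpholino endoderm. Lists of equal length gave 10.5%, 7.97%, 7.75%, 5.49%, 6.51% and 5.19%; the construction itself shortens the set 1 lists most, and alpha-amanitin endoderm then stood above ectoderm, as it also did with peaks within 500 bp. That second setting gave 64.3%, 49.01%, 18.4%, 9.15%, 9.73% and 4.11%. With 50% overlap they were 57.8%, 41.8%, 14.5%, 8.79%, 7.72% and 2.98%. With the upper 50% of every list they were 59.2%, 40.8%, 16.7%, 9.96%, 9.19% and 3.19%. Chosen after seeing the data, regions over 5 kb from the other untreated layers gave 55.3%, 39.5%, 12.6%, 6.33%, 6.21% and 3.03%, set 1 lists of equal length gave 54.7% for set 1 mesoderm, and alpha-amanitin lists of equal length gave 8.88% for mesoderm and 6.13% for ectoderm. On chromosomes alone every share stayed within its interval. The unknown depth limits every absence from a list.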
